A study of Homo sapiens with 3 samples.

Results

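CXCL12, CXCR4 and ACKR3 make up a chemokine ligand and its receptors, and their transcripts were read on arrays of T47D, a human breast cancer line in long-established culture that carries estrogen and progesterone receptors. The members are all probe sets whose single gene symbol is CXCL12 (2 probe sets), CXCR4 (3) or ACKR3 (3), together 8 of the 54675 probe sets and 3 of the 19775 genes named by a single symbol. All cultures spent 4 h in medium with 10% charcoal-stripped serum, which removes steroids. They were then kept for 3 h with 0.1% ethanol (the vehicle, labelled T47D control), with 1 uM estradiol, the receptor's natural hormone, or with 1 uM tamoxifen, a selective modulator of the estrogen receptor. Each treatment was read on 1 Affymetrix array, giving 3 arrays without replicates. Nothing below has a p-value or an SD over samples, precision is limited by having 1 array a group, and the agreement between probe sets of the same gene is the check that remains, which covers measurement within an array and not the spread between cultures.

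CXCL12, also called SDF-1, is a secreted chemokine that stromal cells make in most tissues and that binds glycosaminoglycans on cell surfaces. CXCR4 is its G protein-coupled receptor, which signals through inhibitory G proteins to cell migration and survival, whereas ACKR3, formerly CXCR7, binds CXCL12 without classical G protein signalling, recruits arrestin and removes the chemokine from the surroundings. In breast cancer this axis is known for its part in the homing of tumour cells to distant organs, and CXCL12 is a known estrogen-induced gene of receptor-positive breast cancer cells.

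The bases before the transcription start are shown for CXCL12 and CXCR4. Promoter sequences of these 2 of the 3 genes were matched in the RefSeq table of build GRCh38.p14, and none was available for ACKR3. Each run holds the 250 bases before the start, 5′ to 3′ on the minus strand, at chr10:44385098-44385347 for CXCL12 and at chr2:136118150-136118399 for CXCR4, whose start is the outermost of 3 in the table. Capitals mark the estrogen receptor core motif GGTCA or its reverse complement TGACC, and the GC box GGGCGG, bound by Sp factors, or its reverse complement CCGCCC.
CXCL12: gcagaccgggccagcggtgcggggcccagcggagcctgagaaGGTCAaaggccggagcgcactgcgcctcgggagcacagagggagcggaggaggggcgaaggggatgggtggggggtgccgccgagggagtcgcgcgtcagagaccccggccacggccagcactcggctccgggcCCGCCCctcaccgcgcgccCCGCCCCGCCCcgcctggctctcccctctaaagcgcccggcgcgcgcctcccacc
CXCR4: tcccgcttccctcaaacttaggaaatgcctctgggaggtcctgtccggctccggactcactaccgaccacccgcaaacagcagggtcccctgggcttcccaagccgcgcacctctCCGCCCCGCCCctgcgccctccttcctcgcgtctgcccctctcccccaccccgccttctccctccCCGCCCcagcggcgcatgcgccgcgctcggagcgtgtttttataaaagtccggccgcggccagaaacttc

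The CXCL12 run held 1 core motif, on the printed strand from 208 to 204 bases before the start, and the CXCR4 run held none. A core motif was present in 32.6% of the 35116 promoter windows of this length, so its presence is common. The full palindromic estrogen response element, GGTCA followed by 3 bases of any kind and TGACC, contains the core motif in both orientations. It was in neither run and in 0.0399% of all windows. Each run held 3 GC boxes, all on the opposite strand. In each run a pair of them overlapped by 1 base, and 42.6% of all windows held at least 1. A match of letters is a description of the sequence and not of binding, and its part in the array differences was not tested.

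The vehicle, estradiol and tamoxifen arrays had medians of -0.0070, -0.011 and 0.081 and SDs over their probe sets of 0.19, 0.41 and 0.44. The deposited values were taken to be log2 values centred per probe set. A value near 0 therefore says nothing of how strongly a gene was expressed, levels cannot be compared between genes, and the identity of the line cannot be checked from its markers. Differences between arrays are kept. Array values are printed as deposited, and differences below are relative to the median difference of all genes (-0.0057 for estradiol minus vehicle, 0.10 in tamoxifen minus vehicle and 0.11 in tamoxifen minus estradiol) unless said to be as deposited. The scaled median absolute deviation of all genes was 0.33, 0.36 and 0.20 for these comparisons. The 2 comparisons with vehicle share the vehicle array, which differed from both treated arrays in control probe sets. The median of 3 probe sets of 18S ribosomal RNA exceeded vehicle by 1.86 with estradiol and 1.96 with tamoxifen as deposited, and 24 polyadenylated spike probe sets had medians of 0.70 and 0.49. The difference between the 3′ and 5′ ends of ACTB (3′ minus 5′) was -0.78 and -0.77 relative to vehicle. Between tamoxifen and estradiol the same controls differed by 0.043, -0.15 and 0.0058.

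CXCL12 had the highest value on the estradiol array and the lowest on the tamoxifen array in both of its probe sets. Probe set 203666_at read -0.22 with vehicle, 1.31 with estradiol and -0.71 with tamoxifen. Probe set 209687_at read -0.052, 0.94 and -0.46 on the same arrays. Both probe sets thus put the arrays in the order estradiol, vehicle, tamoxifen. Whether vehicle and tamoxifen differ beyond the spread between cultures cannot be said without replicates.

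**Figure D1:**
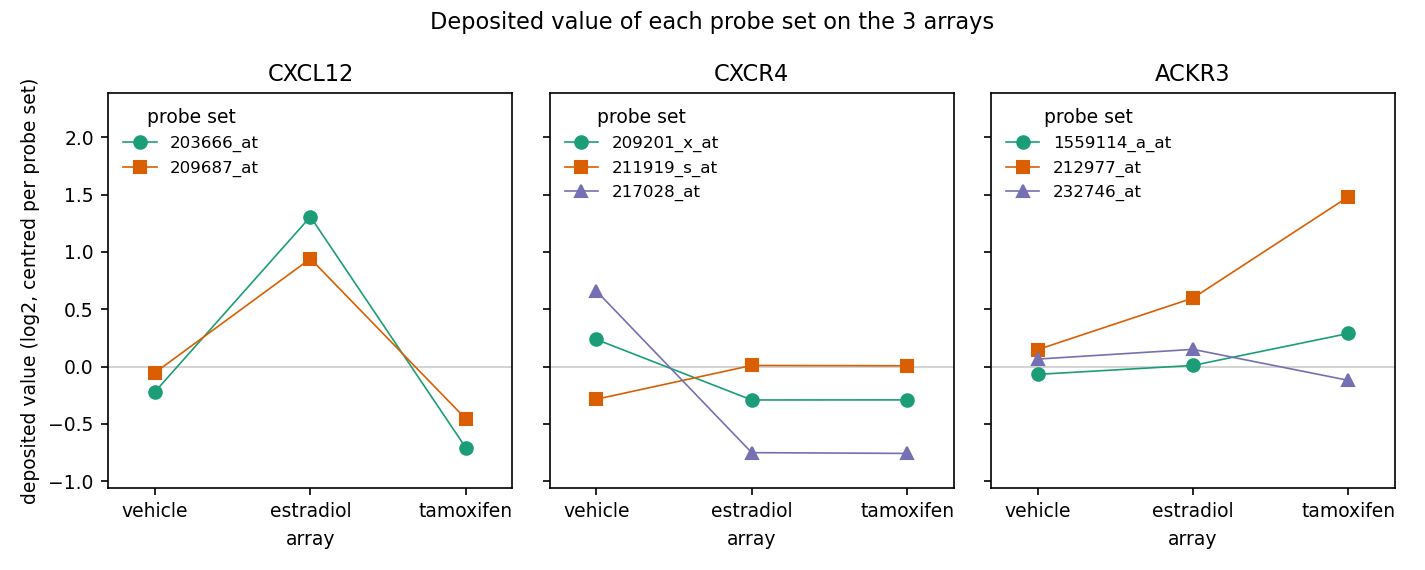
Deposited log2 value, centred per probe set (vertical axis), on the vehicle, estradiol and tamoxifen arrays (horizontal axis), with 1 symbol and line per probe set and a panel per gene. The CXCL12 probe sets peak on the estradiol array at 1.31 and 0.94, the CXCR4 probe sets are level between both treated arrays, and the ACKR3 probe set 212977_at stands above its fellows on the tamoxifen array at 1.48. Heights of different probe sets are not comparable, since each was taken to be centred on its own.

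Against vehicle, CXCL12 was 2.40-fold higher on the estradiol array as the median of its probe sets, a log2 difference of 1.27. The probe sets read 1.53 and 0.999, the latter just under the 2-fold mark. They differed by 0.53, a span reached by 30.1% of the 5015 genes with 2 probe sets, whose median was 0.33. CXCL12 ranked 138 from the top of 19775 genes. It was the 1 gene of the 3 past 2-fold higher, where 1.62% of all genes lay that high. By probe sets, 1 of 8 members was at least 2-fold higher in that comparison (all probe sets, 3.9%) and 1 was at least 2-fold lower (2.33%). Of the 10523 genes with several probe sets, 27 including CXCL12 had every probe set at least as high as its lower probe set.

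Against vehicle, CXCL12 was 1.46-fold lower on the tamoxifen array, a log2 difference of -0.55 with probe sets at -0.59 and -0.51. After quantile normalization of the arrays the log2 difference was -0.32. These are below 2-fold, and 10.1% of all genes lay lower. The probe sets differed by 0.085, against a median of 0.37 in the 5015 genes with 2 probe sets. None of the 3 genes passed 2-fold here in either direction (all genes, 1.65% higher and 1.79% lower). By probe sets, 1 of 8 was at least 2-fold higher (all probe sets, 4.29%) and 1 at least 2-fold lower (2.62%), and neither was a CXCL12 probe set.

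The comparison of the treated arrays, which does not use the vehicle array, held the largest CXCL12 difference of the 3 comparisons. CXCL12 was 3.53-fold lower with tamoxifen than with estradiol, a log2 difference of -1.82 with probe sets at -2.13 (203666_at) and -1.51 (209687_at). It ranked 4 from the bottom of 19775 genes, and its probe sets ranked 4 and 16 from the bottom of 41097. They agreed in direction but differed by 0.62, a span reached by 9.11% of the 5015 genes with 2 probe sets, whose median was 0.22. Of the 3 genes, 1 was at least 2-fold lower, as were 0.202% of all genes, and 0 were higher (0.0253%). Of the 8 probe sets, 2 were at least 2-fold lower, as were 0.324% of all probe sets, and 0 were higher (0.134%). Every probe set lay past 2-fold on the lower side in 3 of the 10523 genes with several probe sets, or 0.0285%. CXCL12 alone among these 10523 genes had no probe set above -1.51.

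**Figure D2:**
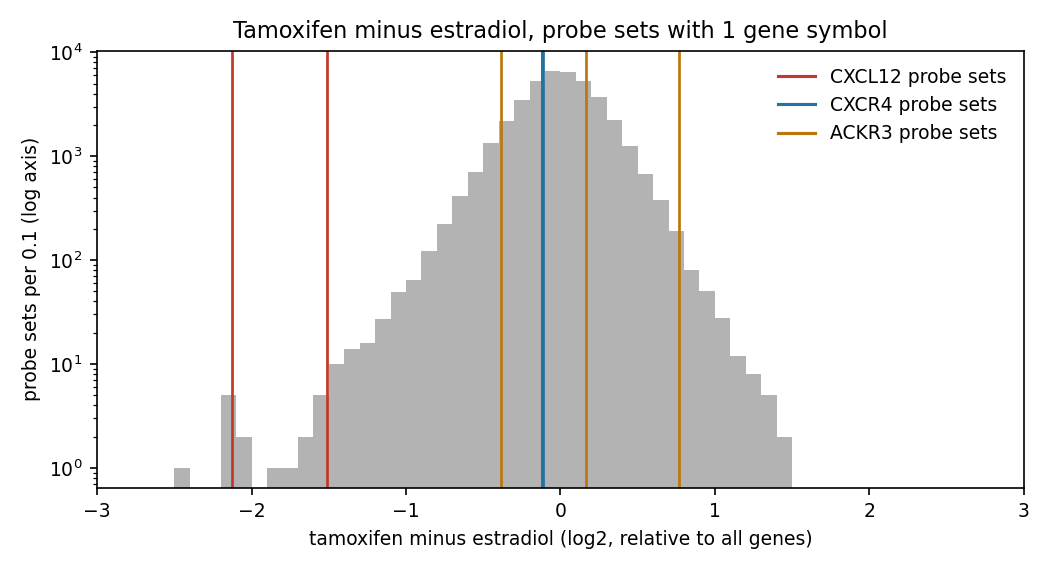
Histogram of the log2 difference tamoxifen minus estradiol, relative to all genes (horizontal axis), over the 41097 probe sets with 1 gene symbol (vertical axis, probe sets per 0.1 on a log scale), with vertical lines at the 8 member probe sets. Both CXCL12 lines lie in the sparse lower tail at -2.13 and -1.51, the 3 CXCR4 lines overlie each other at -0.12 or within rounding of it (-0.11), and the ACKR3 lines spread from -0.38 to 0.77.

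Of the genes of the estrogen response fixed as references, none lay above vehicle with estradiol and below it with tamoxifen, as CXCL12 did. MYC was at 2.18 with estradiol and 1.14 with tamoxifen, PGR at 1.48 and 1.07 and GREB1 at 0.93 and 0.46, all above vehicle on both treated arrays. TFF1, a textbook estrogen-induced gene, was instead below vehicle on both, at -2.17 and -2.85. ESR1 was at 0.21 and 0.074. MYC and TFF1 were each measured by 1 probe set, so the check between probe sets is missing for them. PGR had 2 probe sets and GREB1 had 3. Between the treated arrays these genes differed less than CXCL12. MYC, a growth-promoting transcription factor, was 2.06-fold lower with tamoxifen than with estradiol. GREB1, a cofactor of the estrogen receptor, was 1.67-fold lower, TFF1, a secreted trefoil peptide, 1.61-fold lower and PGR, the progesterone receptor, 1.33-fold lower. ESR1, which encodes estrogen receptor alpha, differed by -0.096, with 9 probe sets from -0.33 to 0.29, and by 0.019 as deposited, so its sign rests on the centring.

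The receptor CXCR4 gave contradictory readings against vehicle and near-identical ones between the treated arrays. Probe set 217028_at read 0.66 with vehicle, -0.75 with estradiol and -0.76 with tamoxifen. Probe set 209201_x_at read 0.24, -0.29 and -0.29, and 211919_s_at read -0.28, 0.010 and 0.0077. The vehicle array is the highest in 2 probe sets and the lowest in the other. The suffix _s_at marks a probe set that can match several transcripts and _x_at one whose probes can match unrelated sequence, while _at probe sets are designed for a single transcript.

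For estradiol minus vehicle, 217028_at was 2.65-fold lower (-1.40), 209201_x_at 1.44-fold lower (-0.52) and 211919_s_at 1.23-fold higher (0.30). For tamoxifen minus vehicle the values were -1.52, -0.63 and 0.19 in the same order. The gene median was therefore -0.52 and -0.63, below 2-fold, and rested on the _x_at probe set. With the _s_at and _x_at probe sets left out, 217028_at alone remained and CXCR4 was at -1.41 and -1.53, past 2-fold. The probe sets spanned 1.70 for estradiol and 1.71 for tamoxifen, a span reached by 3.96% and 6.12% of the 2778 genes with 3 probe sets. These values move with the vehicle array, which also set apart the controls for 18S ribosomal RNA and for the ends of ACTB, and their part in the result was not tested.

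Without the vehicle array, CXCR4 differed by -0.12 between tamoxifen and estradiol, with probe sets from -0.12 to -0.11. As deposited, the gene median was -0.0027. The span of 0.0075 over its probe sets was the smallest of all 2778 genes with 3 probe sets, where the median span was 0.40. No 2-fold difference of CXCR4 between estradiol and tamoxifen was thus seen in any of its probe sets, and with 1 array each this does not show that the treatments act alike.

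**Figure D3:**
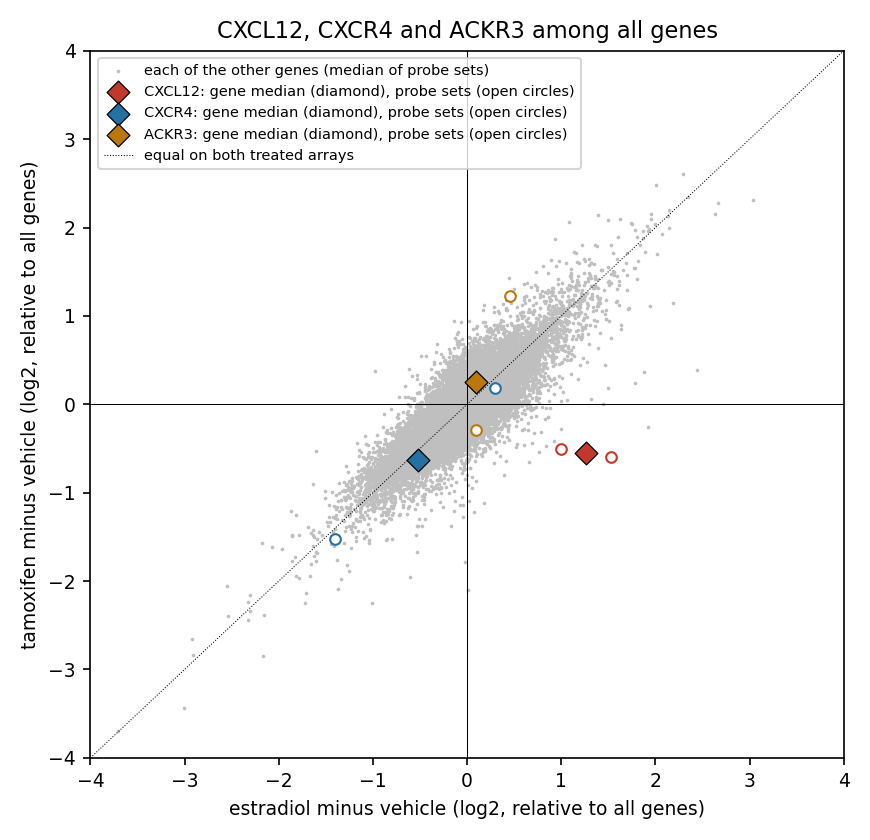
Log2 difference of each gene from vehicle, relative to all genes, on the estradiol array (horizontal axis) and the tamoxifen array (vertical axis). Grey points are the other genes, diamonds the members' gene medians and open circles their probe sets, and on the dotted line both treated arrays are equal. CXCL12 lies far below the line at 1.27 and -0.55, the CXCR4 probe sets spread along it, and 1 ACKR3 probe set lies above it at 0.46 and 1.23. Both axes share the vehicle array, so the slope of the cloud is no evidence of like responses.

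ACKR3, the scavenging receptor, differed little in its gene median, and 1 of its 3 probe sets stood apart. Probe set 212977_at read 0.15 with vehicle, 0.60 with estradiol and 1.48 with tamoxifen. Probe set 1559114_a_at, whose suffix marks alternative transcripts of the same gene, read -0.067, 0.010 and 0.29. Probe set 232746_at read 0.066, 0.15 and -0.12. Tamoxifen is the highest array in 2 probe sets and the lowest in the other, and estradiol lies above vehicle in all 3, by as little as 0.078 as deposited.

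Relative to all genes, the gene median of ACKR3 was 0.091 for estradiol and 0.25 for tamoxifen against vehicle, and 0.16 for tamoxifen against estradiol. Probe set 212977_at was 2.35-fold higher with tamoxifen than with vehicle (1.23) and 1.70-fold higher than with estradiol (0.77). The other probe sets read 0.25 and -0.29 against vehicle, and 0.16 and -0.38 against estradiol. For tamoxifen minus estradiol the span of 1.15 was reached by 1.66% of the 2778 genes with 3 probe sets. A difference of at least 2-fold with tamoxifen against vehicle thus rests on 1 probe set, while 1 other was higher by less and 1 was lower. The mean over probe sets, 0.39 against vehicle, was below 2-fold like the median.

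Genes with at least 2 probe sets were compared with each member by their pair of differences from vehicle. Likeness was the root mean square distance of a gene's probe sets from the member's own pair. The genes nearest to CXCL12 were TGFBR3 (distance 0.62), CISH (0.80) and TPBG (0.84). TGFBR3, a co-receptor of TGF-beta, was at 0.69 for estradiol and -0.44 for tamoxifen, and at -1.14 between the treated arrays. CISH, a suppressor of cytokine signalling, was at 0.70 and 0.17, and TPBG, a membrane glycoprotein, at 0.61 and -0.064. The CXCL12 probe sets themselves lay at 0.27, nearer than any of these genes. That distance is taken from the median of the same probe sets, which favours a small value. For CXCR4 the nearest were OSBPL5 (0.017), a lipid transfer protein, VPS33B (0.067), of vesicle traffic, and ATP5ME (0.070), a subunit of ATP synthase. For ACKR3 they were SCN3B (0.029), a sodium channel subunit, SNX29P2 (0.033), a pseudogene, and RCC1 (0.033), the exchange factor of Ran. The probe sets of CXCR4 and ACKR3 lay at distances of 0.99 and 0.68 from their own medians, so the likeness of these 6 genes is to a median that the members' own probe sets do not share. The likeness is over 3 arrays.

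Other genes of the chemokine system were read from lists beside the members. Of 38 measured chemokine ligands, 0 were at least 2-fold higher than vehicle on the estradiol array (all genes, 1.62%). At least 2-fold lower were 3 (7.89% of the list, against 1.68% of all genes), and the list median was -0.049. On the tamoxifen array the counts against vehicle were again 0 and 3 (all genes, 1.65% higher and 1.79% lower), with a median of -0.018. The 3 were CCL20, which attracts cells carrying CCR6, at -2.92 with estradiol and -2.65 with tamoxifen, CXCL3, a neutrophil chemokine, at -1.60 and -1.77, and CXCL1, another neutrophil chemokine, at -1.15 and -1.10. Each was measured by 1 probe set. CXCL2 and CCL28, named after their values were seen, were below 2-fold in their medians, but each had 1 of 3 probe sets past it against vehicle. That of CXCL2 read -2.61 with estradiol and -3.11 with tamoxifen, and that of CCL28 read 2.03 and 2.04. Between the treated arrays 0 of 38 passed 2-fold (all genes, 0.0253% higher and 0.202% lower), a count near the background. Values ran from -0.83 to 0.76 with a median of 0.063, and CXCL12 at -1.82 lay below all of them.

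Of 19 other chemokine receptors, 1 was at least 2-fold lower with estradiol against vehicle (5.26%, against 1.68% of all genes), and a single gene is too few to set the list apart. This was CCR10, a receptor of epithelial chemokines, at -1.08 with estradiol and -0.83 with tamoxifen. The list medians were -0.087 and 0.058. Between the treated arrays 0 of 19 passed 2-fold, as did 0.0253% of all genes on the higher and 0.202% on the lower side, and values ran from -0.32 to 0.54. ACKR3 at 0.16 and CXCR4 at -0.12 lay inside that range.

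**Figure D4:**
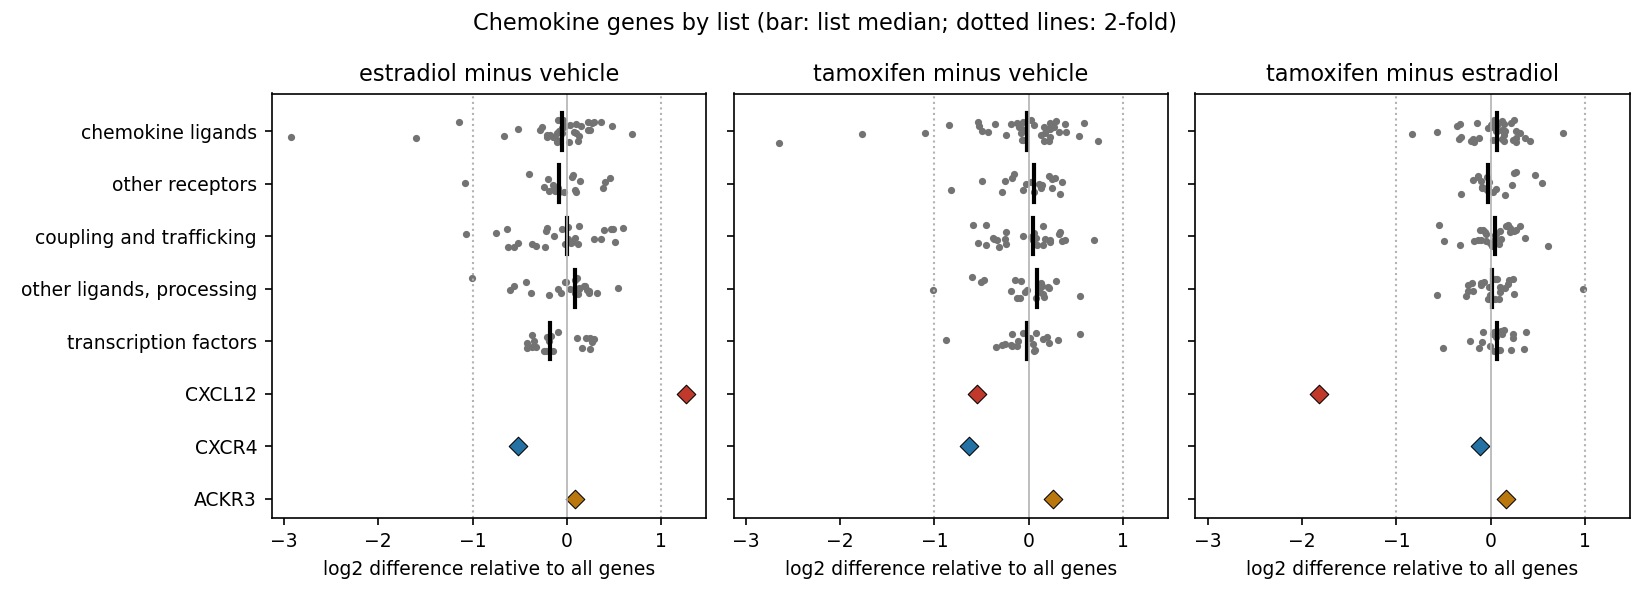
Log2 difference relative to all genes (horizontal axis) for each measured gene of 5 lists (grey points, spread vertically for legibility; bar, list median) and for CXCL12, CXCR4 and ACKR3 (diamonds), in 3 panels for the 3 comparisons. Dotted lines mark 2-fold. In the panel of tamoxifen minus estradiol all list members lie between -0.83 and 0.98, and CXCL12 lies at -1.82.

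Another list held genes that couple CXCR4 to the cell interior or move it through the cell. Of 28 measured, 1 was at least 2-fold lower with estradiol against vehicle (3.57%, against 1.68% of all genes) and 0 were higher (1.62%). This was GNAI1, an inhibitory G protein subunit of the kind CXCR4 uses, at -1.07 with probe sets at -1.27 and -0.87. It read -0.45 with tamoxifen, where 0 of 28 passed 2-fold (all genes, 1.65% higher and 1.79% lower). Between the treated arrays 0 of 28 did (0.0253% and 0.202%). The list medians were -0.0042 for estradiol and 0.046 for tamoxifen against vehicle. These counts are of gene medians, and single probe sets of several genes lay past 2-fold. With tamoxifen against vehicle, GNAQ had 2 of 5 past it, up to 1.93, and PTK2 had 2 of 4, from -1.64 to 1.04. Both were picked after their values were seen. Named here for their roles after their values were seen, ARRB1, an arrestin, read -0.33 and -0.33 against vehicle. ITCH, the ubiquitin ligase that sends CXCR4 to lysosomes, read 0.36 and 0.39. Its 6 probe sets ran from -0.036 to 1.27 with estradiol and from 0.17 to 1.27 with tamoxifen, with 2 past 2-fold in each. GRK2, a receptor kinase, read -0.057 and 0.056.

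Among 24 genes for other ligands of these receptors and for the processing and presentation of CXCL12, 1 was at least 2-fold lower in each comparison with vehicle (4.17%, against 1.68% of all genes with estradiol and 1.79% with tamoxifen), again a single gene. This was SDC4, a heparan sulfate proteoglycan, at -1.001 and -1.01, both barely past the mark. As deposited, it was not past 2-fold with tamoxifen. Also chosen by role after their values were seen, DPP4, the peptidase that inactivates CXCL12, read 0.24 and -0.087, and MIF, a cytokine that also binds CXCR4, read -0.38 and -0.48. ADM, adrenomedullin, a peptide that ACKR3 also binds, read 0.32 and 0.14. MMP13, a collagenase, was the highest of the list between the treated arrays, at 0.98 relative to all genes, from 1 probe set, and was past 2-fold there as deposited.

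Of 20 transcription factors tied to these genes in the literature, 0 were at least 2-fold different in any comparison, with list medians of -0.18, -0.023 and 0.070. With 1.62% to 1.79% of all genes past 2-fold on either side against vehicle, and 0.202% or fewer between the treated arrays, a count of 0 in 20 does not set the list apart. The count is of gene medians, and probe sets of some genes conflicted. Named after their values were seen, YY1 had 3 of 6 probe sets past 2-fold with estradiol, from -1.29 to 1.10. SP1, chosen likewise, had 2 of 4 past 2-fold with estradiol, from -1.04 to 1.46. EZH2, a histone methyltransferase, had the largest difference of the list, -0.88 with tamoxifen against vehicle. It and the next 3 genes are named after their values were seen. HIF1A, the hypoxia factor that induces CXCR4, read 0.28 with estradiol and 0.069 with tamoxifen against vehicle. HIC1, a repressor of ACKR3, read -0.33 and -0.18. EPAS1, another hypoxia factor, read 0.25 and 0.55, and 1 of its 3 probe sets was past 2-fold with tamoxifen.

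CXCL12 is a product of fibroblasts in most tissues, and both receptors are found on endothelium and leukocytes, so markers of these cells were read beside the members. The lists are short, and against shares of 1.62% to 1.79% of all genes past 2-fold on either side versus vehicle, and 0.0253% and 0.202% between the treated arrays, counts of 0 or 1 are near the background. Of 12 fibroblast markers, 0 differed by 2-fold as gene medians in any comparison. The list medians were 0.0072, 0.32 and 0.044 for estradiol minus vehicle, tamoxifen minus vehicle and tamoxifen minus estradiol. Against vehicle the markers ran from -0.97 to 0.84 with estradiol and from -0.90 to 0.75 with tamoxifen. Named after their values were seen, COL1A1 had 2 of 5 probe sets past 2-fold in each comparison with vehicle, and LUM had 1 of 2 with estradiol. The 10 endothelial markers had medians of 0.067, -0.021 and 0.045, and the 10 measured leukocyte markers -0.051, 0.100 and 0.14, again with 0 past 2-fold. Of 12 luminal markers, PGR was past 2-fold higher with estradiol and with tamoxifen against vehicle, and the list medians were 0.043, -0.017 and -0.098. Between the treated arrays, where CXCL12 differed most, the fibroblast markers ranged from -0.43 to 0.53. The labels name only the T47D line, so these values describe transcripts and do not count fibroblasts, endothelial cells or leukocytes. In bulk RNA, fewer cells of a type and less RNA per cell cannot be told apart.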

How the data were processed

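RNA of T47D cells was measured on 3 Affymetrix arrays, 1 per treatment, grouped by the treatment in the labels. The authors made the deposited log2 values with RMA (background correction, quantile normalization and probe summary), per the submitters' processing notes. Its version is not given in the sources used here. The deposited log2 values lie on both sides of 0, so they were taken to be centred by probe set in a step no label mentions. What they were centred on is unknown. It was not the mean or median of these 3 arrays, since ACKR3 probe set 212977_at was above 0 on all 3. Base 2 is taken from RMA, is not testable on centred values, and all folds depend on it. RMA compresses differences at low signal, and which probe sets had low signal is unknown here.

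Symbols came from the array's annotation. Of the 54675 probe sets, 41097 had 1 symbol, 41043 of these matched a GRCh38.p14 gene table by Entrez identifier with 0 symbols changed, and 1801 with several symbols were left out. A gene's value was the median over its probe sets of the difference between 2 arrays, minus the median of 19775 genes. A gene was counted from an absolute log2 difference of 1 (2-fold). With 1 array per group no test was made. The calculation was tested on simulated data (pandas 2.3.3).

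Members and the 9 gene lists (173 of 186 memberships measured) were chosen with earlier results of these data known. Named are all member probe sets, list members past 2-fold in any comparison (at most 6 per list), the 3 nearest genes per member among those with at least 2 probe sets, and the references ESR1, PGR, GREB1, TFF1 and MYC. Genes outside this rule are marked where they appear. Alternatives were the mean over probe sets, leaving out _s_at and _x_at probe sets, differences as deposited, quantile normalization and a cutoff of 1.5-fold.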

Additional observations from a re-analysis of the deposited data

How the results depend on the processing

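No paired analysis was possible because each group has 1 array. Each alternative was set against the median SD over the probe sets of a gene, which was 0.29, 0.33 and 0.20 for estradiol and for tamoxifen against vehicle and between the treated arrays, since no spread between samples exists. CXCL12, CXCR4 and ACKR3 kept their sign in all 3 comparisons under every alternative run on them. For CXCR4 between the treated arrays the sign says little, since its gene median as deposited was -0.0027. After quantile normalization CXCL12 was -1.48 for tamoxifen minus estradiol and -0.32 instead of -0.55 for tamoxifen minus vehicle, the latter a shift within that SD. Without the _s_at and _x_at probe sets, CXCR4 was -1.41 for estradiol and -1.53 for tamoxifen against vehicle, past 2-fold, because 1 of its 3 probe sets was left. The 33 gene values besides the first of these and both CXCR4 values moved by less than that SD.

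At a cutoff of 1.5-fold, the members past it, in the order estradiol minus vehicle, tamoxifen minus vehicle and tamoxifen minus estradiol, numbered 5, 6 and 2 for the chemokine ligands, 5, 2 and 1 for coupling and trafficking, and 2, 2 and 1 for other ligands and processing. For tamoxifen minus vehicle the count was 1 for the other receptors and 1 for the transcription factors. These lists had 38, 28, 24, 19 and 20 measured genes, in the order named. The share of all genes past 1.5-fold was not computed, so whether these counts stand apart from it cannot be said. For tamoxifen minus vehicle the coupling and trafficking count was 1 instead of 0 with the mean over probe sets and also when the _s_at and _x_at sets were left out. Under the same 2 alternatives the ligands past 2-fold numbered 4 instead of 3 in each comparison with vehicle. As deposited, the ligand count was 2 for tamoxifen minus vehicle. As deposited, the count for other ligands and processing was 0 against vehicle with tamoxifen and 1 between the treated arrays. The cause of these shifts was not tested beyond the lower cutoff itself. Signal over background is unknown for all values.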
